A study of Mus musculus with 50 samples.

Results

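Microglia of adult mice that had been reared under early-life stress (ELS) were compared between an injection of lipopolysaccharide (LPS) and an injection of PBS. The comparison was made of every library labelled as an adult (P200) ELS mouse, 5 after LPS and 6 after PBS, which is 11 of the 50 libraries of the series. ELS was induced with limited bedding and nesting material between postnatal days 2 and 9 and was shared by all 11 mice, so that it does not separate the groups. The mice were C57BL/6J males. At P200 they received 1 mg/kg LPS of E. coli O111:B4, or PBS, into the peritoneum and were killed 3 h later. Both hippocampi of a mouse were used, and microglia were sorted as CD45int CD11b+ cells. Poly-A RNA of these cells was sequenced as 1 library per mouse. The other adults, 7 P200-CTR-PBS and 7 P200-CTR-LPS mice reared under control conditions (CTR), were used only where the response was set beside theirs. Since LPS was given outside the brain, the model does not separate what LPS does in the brain from what the body's response to it does there. The number before the point of a mouse's label was taken as its nest. The LPS mice came 1 each from nests 2, 4, 11, 17 and 20, and the PBS mice from the same nests with 2 from nest 17. In the following, 5 values of the LPS mice are given in this order of nests, and the PBS mice are given as their lowest and highest value with the median.

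LPS, a component of the outer membrane of Gram-negative bacteria, is bound by CD14 and MD-2 (encoded by Ly96) and activates TLR4. The adaptor MyD88 leads from there to the NF-κB transcription factors and to MAP kinases, and the adaptor TRIF (Ticam1) leads to interferon regulatory factors. NF-κB induces cytokines, chemokines and also its own inhibitors, among them IκBα (Nfkbia) and A20 (Tnfaip3), which limit the response. Microglia are the resident macrophages of the brain and carry these receptors. At rest they express a set of homeostatic genes such as P2ry12, Tmem119 and the transcription factor gene Sall1.

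The libraries held 15338010 to 20923733 counts after LPS and 18257922 to 34990227 after PBS. Levels are given as CPM, a gene's count scaled to the size of its library, after TMM normalization, which assumes that most genes do not change. The TMM factors were 0.847 to 0.926 in the LPS mice and 1.003 to 1.047 in the PBS mice and thus moved with the treatment. The summed level of 10 microglia markers was 73730 to 85180 CPM after LPS and 82980 to 89360 CPM after PBS. Of 12 neutrophil markers, 4 (Ly6g, Mpo, Elane and Retnlg) were at 0 in all 11 mice, and their sum was 0.221 to 9.99 CPM after LPS, highest in the LPS mouse of nest 17, and 0 to 1.34 CPM after PBS. The 11 monocyte markers summed to 19.0 to 29.9 CPM after LPS and 7.76 to 20.6 CPM after PBS. Border-associated macrophage markers were at 4.65 to 11.9 and 5.16 to 7.77 CPM, lymphocyte markers at 0 to 2.24 and 0.0479 to 1.03 CPM, and erythroid markers at 0.434 to 2.84 and 0.356 to 3.21 CPM. Astrocyte markers summed to 424 to 586 CPM after LPS and 316 to 456 CPM after PBS. Neuron markers (4.1 to 12.5 and 4.13 to 10.2 CPM), oligodendrocyte lineage markers (118 to 200 and 110 to 181 CPM) and endothelial and mural markers (45.3 to 100.2 and 30.5 to 74.3 CPM) overlapped between the groups. The part of these sums in the results was not tested. In bulk RNA, fewer cells of a type and less RNA per cell cannot be told apart. The PBS mouse of nest 20 stood apart from the other PBS mice on the second principal component (105.8, against -30.3 to -4.0), which held 11% of the variance over the 11 mice.

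Of 16696 genes tested with edgeR's quasi-likelihood test, 783 (4.69%) were called higher after LPS and 530 (3.17%) lower, with a log2 fold change beyond 1 in either direction and a Benjamini-Hochberg adjusted p below 0.05. The counts of the gene lists below are to be read beside these shares of 4.69% and 3.17%. The median log2 fold change was 2.61 among the higher genes, -1.79 among the lower genes and -0.035 over all genes tested. The increases were the larger: 351 genes were higher by more than 3 on the log2 scale and 118 lower by more than that. For 84 of the higher genes no count was found in any PBS mouse, and for 31 of the lower genes none in any LPS mouse. With total counts in place of TMM, the median of all genes shifted by -0.215 and the calls became 625 higher and 876 lower, so that the balance between both directions depended on the scaling. Among the called genes, 524 of the higher and 369 of the lower had LPS and PBS mice that did not overlap. Over all genes tested, the called ones included, the share was 10.0%. When the LPS mouse and the PBS mice of the same nest were compared, 615 of the 783 genes were higher and 471 of the 530 genes lower in all 5 nests. The called genes were chosen on these same mice, which favours both the lack of overlap and a shared direction. These counts are thus a description and no independent evidence of the response.

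**Figure D1:**
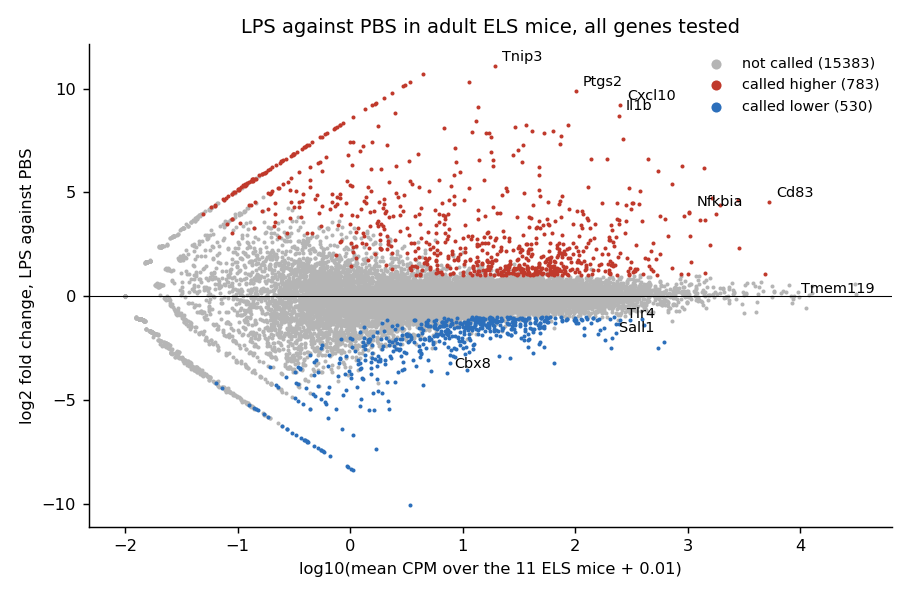
Each point is 1 of the 16696 genes tested, placed by its mean CPM over the 11 ELS mice (log10 axis, with 0.01 added) and its log2 fold change of LPS against PBS. The 783 genes called higher (red) reach up to 11.09 on the log2 scale, while most of the 530 genes called lower (blue) lie nearer to 0, and points along the straight edges at the left are genes with counts in 1 of the groups only.

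The LPS mice did not respond to the same extent. The mean log2 CPM over the 783 higher genes was 4.41, 3.64, 3.64, 4.44 and 4.69 in the LPS mice and 1.44 to 1.69 in the PBS mice. The LPS mice of nests 4 and 11 were thus below the other three, and the LPS mouse of nest 20 was the highest of the 5 mice for 371 of the 783 genes. The lowest was the LPS mouse of nest 11 for 322 genes and that of nest 4 for 301. Over the 530 lower genes the mean was 1.17, 1.49, 1.57, 1.35 and 0.97 in the LPS mice and 3.17 to 3.35 in the PBS mice, and here too the LPS mice of nests 4 and 11 were nearest to the PBS mice. The first principal component of the 11 mice (33.6% of the variance) separated the treatments and placed the LPS mice of nests 4 (47.7) and 11 (45.1) nearer to the PBS mice (-71.0 to -52.9) than those of nests 2 (85.3), 17 (79.1) and 20 (96.5). Leaving out 1 mouse at a time gave 669 to 802 higher and 427 to 545 lower genes.

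The 10 largest increases among called genes with at least 5 CPM and no overlap of the groups were those of Tnip3, Adm, Lrg1, Trem1, Bcar1, Cxcl2, Ptgs2, Adora2a, Cxcl10 and Sphk1. Of these, 5 had no count in any PBS mouse. Their fold, and that of other such genes below, is the mean of the LPS mice against a floor of 3 counts over the PBS group (0.0204 CPM). It is a lower bound for counting error in the PBS group only and does not cover the spread among the LPS mice. Adm (chr7:110226858-110229027), which encodes the vasodilator peptide adrenomedullin, was at 5.46, 1.17, 0.0618, 8.73 and 33.7 CPM after LPS, at least 481-fold higher. Lrg1 (chr17:56426283-56429001), an acute-phase glycoprotein gene, was at 10.03, 5.09, 7.36, 6.2 and 8.81 CPM, at least 368-fold higher. Both encode secreted products. Bcar1, which encodes the adhesion scaffold p130Cas, was at 11.8, 3.63, 3.09, 5.27 and 9.61 CPM (at least 328-fold). Cxcl2, a neutrophil chemoattractant, was at 2.21, 1.17, 1.98, 9.66 and 17.12 CPM (at least 315-fold). Adora2a, an adenosine receptor gene, was at 3.39, 0.819, 0.124, 3.57 and 17.9 CPM (at least 252-fold). For Adm and Adora2a the spread among LPS mice was wide, from the lowest value in the LPS mouse of nest 11 to the highest value in the LPS mouse of nest 20.

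Tnip3 (chr6:65502295-65611024), an A20-binding inhibitor of NF-κB, had 2 counts in the PBS mice together and was at 18.22, 8.84, 5.75, 52.11 and 128 CPM after LPS. Trem1, a receptor that amplifies TLR signals, also had 2 counts after PBS and was at 36.2, 10.9, 6.62, 27.4 and 43.4 CPM after LPS. Both rose in all 5 LPS mice, again least in the LPS mice of nests 4 and 11. Ptgs2, the inducible cyclooxygenase COX-2, was at 246, 88.8, 11.13, 332 and 436 CPM after LPS and at 0 to 1.37 CPM (median 0) after PBS, with a log2 fold change of 9.87 ± 1.01 (SE, adjusted p = 7.43e-11). Sphk1, which makes sphingosine-1-phosphate, was at 28.5, 5.62, 15.9, 40.6 and 58.16 CPM against 0 to 0.161 CPM (median 0.0259). The annotation places Ptgs2os on the opposite strand of Ptgs2 and Gm29292 on that of Sphk1, and since the strand setting of the counting is not given in the sources used here, reads of such pairs cannot be told apart. The same holds for the other genes named here that overlap a tested gene on the opposite strand, which are Arrdc3, B2m, Ccnd2, Cd274, Cd300lf, Cdkn1a, Cebpb, Cish, Cx3cr1, Cxcl10, Cybb, Dusp1, Fkbp5, Fli1, Gm37124, Icam1, Il1a, Il1b, Irf1, Irf7, Junb, Maf, Map3k8, Mt2, Myd88, Nfkb2, P2ry12, P2ry6, Pfkfb3, Rab20, Rab37, Runx1, Slc2a1, Slfn2, Tirap, Tnfsf9, Vcan, Zfp36, Zfp36l2 and Zmym6.

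The smallest adjusted p among the higher genes belonged to Gm49482, Gpr84, Rab20, Nfkbia and Cdkn1a. Gpr84 (chr15:103216662-103219039), a receptor for medium-chain fatty acids on myeloid cells, was at 5863, 2581, 4512, 6924 and 9369 CPM after LPS and 164 to 293 CPM (median 246) after PBS, a log2 fold change of 4.62 ± 0.23 (SE, adjusted p = 6.60e-22). Gm49482 (chr15:103209492-103217504) overlaps Gpr84 on the opposite strand and rose by 4.71, so that both may count the same reads. Rab20, a small GTPase of phagosomes, was at 451, 276, 419, 411 and 498 CPM against 31.9 to 46.8 CPM (median 35.8, log2 fold change 3.44 ± 0.18 SE, adjusted p = 1.75e-21). For Rab20 the 5 LPS mice were close together, and the LPS mouse of nest 4 was the lowest. Cdkn1a, which encodes the cell cycle inhibitor p21, was at 281, 138, 170.3, 258 and 329 CPM against 8.08 to 17.4 CPM (median 14.7, log2 fold change 4.11 ± 0.22 SE, adjusted p = 5.91e-21).

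Genes of LPS sensing changed unevenly. All 31 listed genes of TLR4 sensing and signalling passed the filter, and 7 were called higher and 1 lower, against 4.69% and 3.17% of all genes tested, with a median log2 fold change of 0.14. Tlr4 itself was the lower gene, at 145, 214, 57.3, 152 and 111 CPM after LPS and 261 to 464 CPM (median 332) after PBS, a log2 fold change of -1.32 ± 0.27 (SE, adjusted p = 2.60e-04). The groups did not overlap, and the LPS mouse of nest 11 was the lowest. The co-receptor gene Cd14 was at 5588, 2565, 2771, 6066 and 8416 CPM after LPS against 898 to 1109 CPM (median 1007, log2 fold change 2.32 ± 0.21 SE, adjusted p = 6.93e-13). Tlr2, the receptor for bacterial lipoproteins, was at 2616, 1273, 851, 3184 and 5155 CPM against 181 to 237 CPM (median 202, log2 fold change 3.69 ± 0.29 SE, adjusted p = 1.85e-14). The 2 receptors thus moved up while Tlr4 moved down, and Ly96, the MD-2 gene, was not called (-0.25, adjusted p = 0.459). Of the adaptors, Myd88 rose by 2.07 ± 0.26 (SE, adjusted p = 1.98e-08) and Tirap by 1.39 ± 0.39 (SE, adjusted p = 0.0109), while Ticam1 gave 1.53 ± 0.54 (SE, adjusted p = 0.0503) and just missed the threshold. Ticam1 was called under 10 alternatives, with an adjusted p of 3.25e-04 to 0.0489, among them DESeq2 size factors, the 25 adults or the 11 ELS adults alone and leaving out the LPS mouse of nest 4. The largest change of the list was that of Map3k8, the kinase TPL2 that links this pathway to ERK, at 361, 258, 194, 402 and 588 CPM against 10.7 to 21.4 CPM (median 16.8, log2 fold change 4.49 ± 0.26 SE, adjusted p = 7.98e-20). The other 23 genes were not called.

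Of the 5 NF-κB subunit genes, Relb, Nfkb2 and Rel were called higher. Relb was at 114, 30.9, 49.5, 101 and 155 CPM after LPS and 3.58 to 12.3 CPM (median 10.03) after PBS (log2 fold change 3.33 ± 0.53 SE, adjusted p = 4.50e-06), and Nfkb2 at 177, 44.5, 67.0, 117 and 186 CPM against 8.2 to 22.6 CPM (median 14.9, log2 fold change 3.02 ± 0.48 SE, adjusted p = 3.33e-06). Rel rose less (log2 fold change 1.54 ± 0.26 SE, adjusted p = 1.37e-05), and its groups overlapped because the LPS mouse of nest 11 (99.4 CPM) lay within the PBS mice. Nfkb1 (0.32, adjusted p = 0.222) and Rela (0.47, adjusted p = 0.325), which encode the p50 precursor and p65, were not called.

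Inhibitors of the response were the list with the most calls. Of 30 listed genes 28 were tested, 22 were higher and 1 lower, and the median log2 fold change was 3.15. Nfkbia, which encodes the IκBα protein that holds NF-κB in the cytoplasm, was at 1996, 1174, 2603, 2108 and 2698 CPM after LPS and 86.1 to 224 CPM (median 107) after PBS (log2 fold change 4.07 ± 0.21 SE, adjusted p = 3.82e-21). Tnfaip3, the ubiquitin-editing enzyme A20, was at 554, 169, 91.9, 624 and 1408 CPM against 35.4 to 56.2 CPM (median 46.6, log2 fold change 3.60 ± 0.51 SE, adjusted p = 4.08e-07). For Nfkbia the LPS mouse of nest 11 was the second highest, while for Tnfaip3 it was the lowest, far below the LPS mouse of nest 20. Il1rn, the antagonist of the IL-1 receptor, was at 108, 34.99, 31.4, 269 and 508 CPM against 0 to 1.44 CPM (median 0.718, log2 fold change 8.26 ± 0.88 SE, adjusted p = 2.16e-10). Of the suppressors of cytokine signalling, Socs3 was at 2756, 1275, 1295, 1927 and 2451 CPM against 9.09 to 44.5 CPM (median 24.9, log2 fold change 6.26 ± 0.60 SE, adjusted p = 8.67e-12), and Cish rose by 8.24 ± 1.03 (SE, adjusted p = 1.58e-08). For Il1rn and Socs3 the groups did not overlap. Dusp1, a phosphatase of MAP kinases, was at 602, 350.4, 637, 888 and 2375 CPM against 4.74 to 19.06 CPM (median 7.96, log2 fold change 6.61 ± 0.62 SE, adjusted p = 4.09e-12). The mRNA decay factor gene Zfp36 was at 3289, 2855, 2319, 2997 and 2811 CPM against 190.1 to 270.1 CPM (median 216, log2 fold change 3.68 ± 0.29 SE, adjusted p = 1.85e-14), with little spread among the LPS mice. Its relative Zfp36l2 was the lower gene of the list (log2 fold change -2.09 ± 0.29 SE, adjusted p = 1.74e-07). Without the LPS mouse of nest 20, 2 genes of the list were lower. The anti-inflammatory cytokine gene Il10 did not pass the filter on low counts and had 13 counts after LPS, all in the LPS mouse of nest 20, and none after PBS.

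The promoters of the called genes were searched for the binding motifs of the factors downstream of TLR4. RefSeq windows (build GRCm38.p6, which differs from the GRCm39 build of the counts, so that they were matched by symbol) were found for 11284 of the tested genes, among them 558 of the higher and 308 of the lower genes. In the 200 bases before the start site, searched on both strands, the NF-κB consensus was found in 42 promoters of higher genes (7.53%), 9 of lower genes (2.92%) and 3.47% of all. The interferon-stimulated response element, written GAAANNGAAA, was found in 5.02%, 2.27% and 1.93%, the AP-1 motif TGANTCA in 6.09%, 3.25% and 3.37%, and the cAMP response element TGACGTCA in 4.66%, 1.62% and 2.69%. These shares describe letters in the sequence and not binding, and for each motif most promoters of higher genes held no match. The windows of 5 genes of this comparison with an NF-κB consensus and of 1 with the interferon element are printed 5′ to 3′ on the strand of the gene, with these 2 motifs in capitals. They are those of Nfkbia at chr12:55492648-55492847 (- strand), Tnfaip3 at chr10:19015411-19015610 (- strand), Cxcl2 at chr5:90903699-90903898 (+ strand), Cxcl10 at chr5:92348890-92349089 (- strand), Tlr2 at chr3:83841609-83841808 (- strand) and Isg15 at chr4:156200819-156201018 (- strand). They are shown because these genes carry the inhibitor, chemokine, receptor and interferon parts of the response.
Nfkbia: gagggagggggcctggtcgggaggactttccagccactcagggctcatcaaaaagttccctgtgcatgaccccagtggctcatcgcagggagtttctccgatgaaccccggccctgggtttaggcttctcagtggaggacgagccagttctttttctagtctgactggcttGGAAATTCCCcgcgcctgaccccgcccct
Tnfaip3: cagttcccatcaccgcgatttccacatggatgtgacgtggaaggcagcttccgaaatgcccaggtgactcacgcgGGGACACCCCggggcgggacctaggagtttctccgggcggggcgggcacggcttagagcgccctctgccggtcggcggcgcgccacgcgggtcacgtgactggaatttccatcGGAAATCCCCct
Cxcl2: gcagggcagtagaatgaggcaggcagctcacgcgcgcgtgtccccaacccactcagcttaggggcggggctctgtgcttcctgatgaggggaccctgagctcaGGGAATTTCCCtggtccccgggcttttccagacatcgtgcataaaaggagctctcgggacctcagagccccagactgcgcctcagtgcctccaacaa
Cxcl10: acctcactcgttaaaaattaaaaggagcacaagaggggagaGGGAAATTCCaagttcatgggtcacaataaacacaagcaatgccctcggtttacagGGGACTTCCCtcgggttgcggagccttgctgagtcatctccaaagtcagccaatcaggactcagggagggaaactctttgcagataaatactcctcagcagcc
Tlr2: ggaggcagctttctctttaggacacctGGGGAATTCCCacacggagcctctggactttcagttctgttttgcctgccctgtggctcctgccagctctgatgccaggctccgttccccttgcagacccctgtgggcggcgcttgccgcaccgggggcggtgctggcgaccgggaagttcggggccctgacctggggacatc
Isg15: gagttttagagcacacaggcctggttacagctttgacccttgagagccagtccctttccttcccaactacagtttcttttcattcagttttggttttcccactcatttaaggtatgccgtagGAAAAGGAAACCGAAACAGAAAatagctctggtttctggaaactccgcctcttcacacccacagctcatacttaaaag
Cxcl10 and Tnfaip3 held 2 separate matches each, and the longer capital runs of Cxcl2 and Tlr2 are overlapping matches of both strands. Isg15 held 3 overlapping interferon elements.

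Of 26 listed genes of secreted cytokines, 18 were tested and 9 were higher, with a median log2 fold change of 1.28. None was lower. Il1b was at 474, 253, 206, 659 and 1081 CPM after LPS and 0 to 3.18 CPM (median 1.27) after PBS (log2 fold change 8.70 ± 0.80 SE, adjusted p = 2.38e-12). Il1a, which was already expressed after PBS, was at 1953, 1448, 449, 3016 and 3701 CPM against 61.7 to 187 CPM (median 134, log2 fold change 4.03 ± 0.31 SE, adjusted p = 1.04e-14). Tnf was at 277, 137, 65.1, 368 and 664 CPM against 0.712 to 4.91 CPM (median 3.59, log2 fold change 6.59 ± 0.66 SE, adjusted p = 3.39e-11). In all 3 genes the groups were far apart, the LPS mouse of nest 20 was the highest and the LPS mouse of nest 11 the lowest. Tnfsf9, the ligand of the costimulatory receptor 4-1BB, was at 496, 118, 108, 655 and 1540 CPM against 1.63 to 5.51 CPM (median 2.5, log2 fold change 7.55 ± 0.58 SE, adjusted p = 5.97e-15). Il12b, the shared subunit of IL-12 and IL-23, was at 78.4, 50.1, 37.03, 137 and 392.2 CPM against 0 to 3.64 CPM (median 0, log2 fold change 7.95 ± 1.08 SE, adjusted p = 4.31e-07). Tnfsf9 and Il12b again were highest in the LPS mouse of nest 20. Osm, oncostatin M, was at 131, 137, 139, 143 and 113 CPM against 19.26 to 25.96 CPM (median 22.1, log2 fold change 2.57 ± 0.27 SE, adjusted p = 1.03e-10), and its 5 LPS mice were close together. Il6 was at 47.2, 33.2, 14.5, 69.6 and 67.2 CPM against 15.12 to 25.8 CPM (median 18.23) and was not called (log2 fold change 1.28 ± 0.65 SE, adjusted p = 0.21), with the LPS mouse of nest 11 below the lowest PBS mouse. When the spread was estimated from the 25 adult mice alone, Il6 passed (log2 fold change 1.31, adjusted p = 0.00119). It also passed with the 11 ELS adults alone (adjusted p = 0.0112) and with limma-voom and nest as a random effect (adjusted p = 0.0122).

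**Figure D2:**
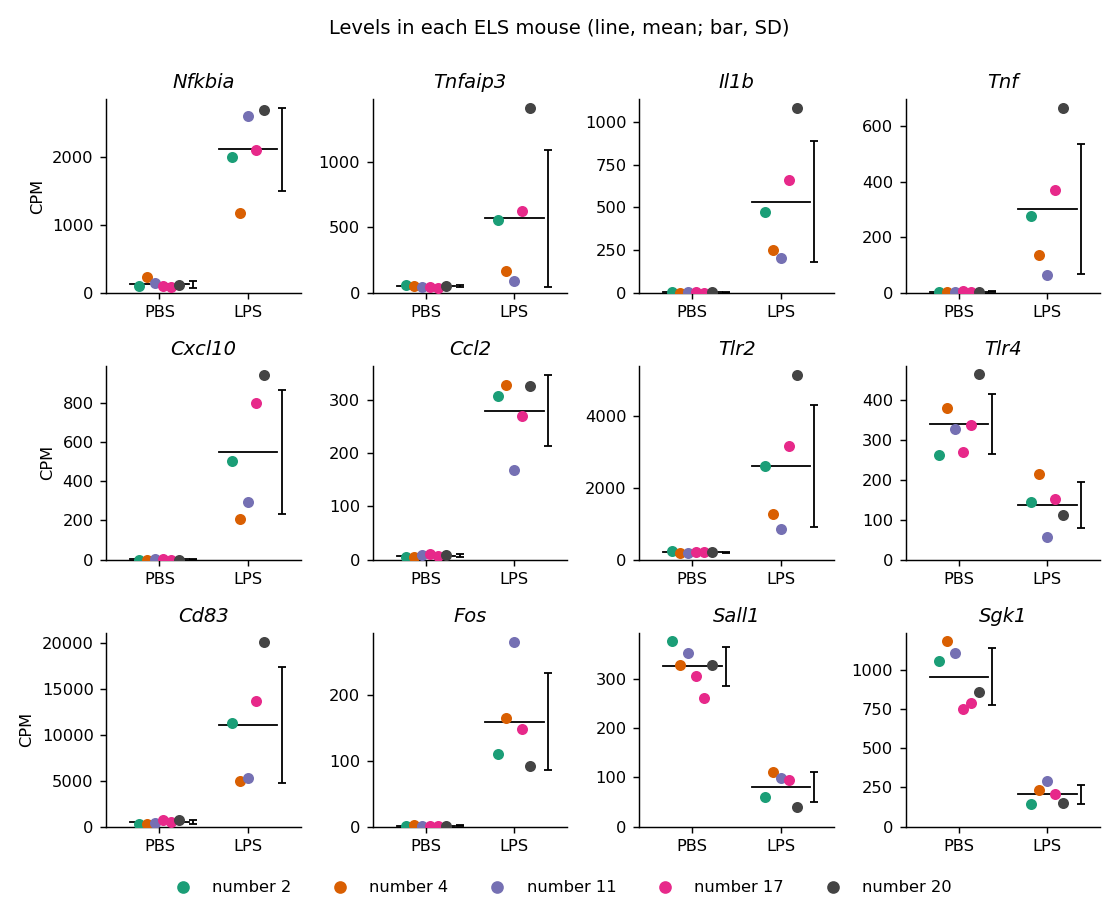
CPM of 12 genes in each of the 6 PBS and 5 LPS mice, with a separate linear axis per gene, the colour marking the number before the point of the mouse label, the horizontal line the mean and the bar the SD. For Il1b, Tnf, Cxcl10, Tlr2, Tnfaip3 and Cd83 the LPS mice with numbers 4 and 11 lie below the other three, while for Fos the mouse with number 11 is the highest, and for Tlr4, Sall1 and Sgk1 all LPS mice lie below all PBS mice.

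Chemokines had the largest median of all lists, 4.08 on the log2 scale, with 15 of 20 tested genes higher and none lower (28 were listed). Ccl2, which recruits monocytes, was at 306, 328, 168, 269 and 326 CPM after LPS and 4.91 to 10.4 CPM (median 7.63) after PBS (log2 fold change 5.24 ± 0.39 SE, adjusted p = 3.32e-15). Ccl12, another monocyte chemoattractant, was at 3489, 1902, 1540, 3567 and 4583 CPM against 26.4 to 62.1 CPM (median 40.3, log2 fold change 6.17 ± 0.44 SE, adjusted p = 3.35e-16). Cxcl10, the ligand of CXCR3, was at 504, 207, 295, 802 and 943 CPM against 0 to 3.3 CPM (median 0.387, log2 fold change 9.19 ± 0.84 SE, adjusted p = 2.10e-12). In these 3 genes the lowest LPS mouse lay above the highest PBS mouse. Ccl5 rose by 5.2 ± 0.81 (SE, adjusted p = 2.79e-06), and Ccl4 was at 1575, 1119, 1003, 2105 and 3672 CPM against 25.1 to 258 CPM (median 126, log2 fold change 3.87 ± 0.40 SE, adjusted p = 1.19e-10). Ccl3 was called (log2 fold change 2.84 ± 0.45 SE, adjusted p = 4.36e-06), but its groups overlapped, with 8.29 to 125 CPM (median 58.8) after PBS and 123 CPM in the LPS mouse of nest 11. Of the receptors for chemoattractants, 5 of 18 tested genes were higher and none lower, and the median was 0.76, with 1 lower gene without the LPS mouse of nest 4. Ccr7, which guides leukocytes to lymphoid tissue, was at 25.01, 10.00, 2.97, 37.4 and 67.5 CPM against 0 to 0.543 CPM (median 0, log2 fold change 8.44 ± 1.23 SE, adjusted p = 6.92e-07), and the complement receptor gene C5ar1 at 3147, 1989, 1525, 3468 and 4023 CPM against 438 to 588 CPM (median 504, log2 fold change 2.45 ± 0.20 SE, adjusted p = 6.80e-14). Ccrl2 rose by 3.26 ± 0.32 (SE, adjusted p = 2.63e-11). Cx3cr1, the fractalkine receptor of resting microglia, was at 7354 CPM after LPS and 9371 CPM after PBS and was not called (-0.35, adjusted p = 0.353).

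Interferon-stimulated genes rose in part. Of 46 tested of 50 listed, 18 were higher and none lower, and the median was 1.06. Slfn2, a Schlafen family gene, was at 772, 551, 498, 922 and 1257 CPM after LPS and 14.98 to 30.6 CPM (median 25.5) after PBS (log2 fold change 5.08 ± 0.27 SE, adjusted p = 6.20e-21). The guanylate-binding protein gene Gbp5 rose by 4.59 ± 0.71 (SE, adjusted p = 2.34e-06) and the transcription factor gene Irf1 by 2.82 ± 0.27 (SE, adjusted p = 5.38e-12). Isg15, a ubiquitin-like modifier, was at 12.03, 6.44, 9.15, 11.09 and 22.04 CPM against 1.89 to 5.94 CPM (median 3.15, log2 fold change 1.83 ± 0.40 SE, adjusted p = 8.61e-04). Ifit1 was called (log2 fold change 3.25 ± 0.87 SE, adjusted p = 0.00726), but its groups overlapped. Irf7, a transcription factor gene of the interferon response, was not called (1.08, adjusted p = 0.224), although it was with the 11 ELS adults alone (adjusted p = 0.0371). Among genes of antigen presentation and costimulation, 8 of 24 tested were higher and none lower (median 0.86). Cd83, a marker of activated antigen-presenting cells, was at 11250, 4993, 5267, 13610 and 20040 CPM against 237 to 714 CPM (median 446, log2 fold change 4.54 ± 0.30 SE, adjusted p = 1.85e-17), and the adhesion molecule gene Icam1 at 4828, 2023, 1779, 4825 and 6651 CPM against 168 to 223 CPM (median 187, log2 fold change 4.41 ± 0.31 SE, adjusted p = 1.79e-16). Cd40, a costimulatory receptor, was at 55.33, 15.3, 20.22, 71.5 and 212 CPM against 0 to 0.819 CPM (median 0.574, log2 fold change 7.26 ± 1.05 SE, adjusted p = 5.87e-07). Cd74, the invariant chain of MHC class II, rose by 2.88 ± 0.36 (SE, adjusted p = 2.40e-08), and the class I heavy chain gene H2-K1 by 1.23 ± 0.19 (SE, adjusted p = 3.38e-06). B2m, its light chain, gave 0.65 (0.00104 as adjusted p), under the fold threshold. Cd274, the checkpoint ligand PD-L1, was called (log2 fold change 2.55 ± 0.69 SE, adjusted p = 0.00845), and without the LPS mouse of nest 20 it was not (2.1, adjusted p = 0.0509).

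Of 28 listed antimicrobial and acute-phase genes, 27 were in the files and 11 were under 1 CPM in all 11 mice. Of the 27, 15 were tested and 9 were called higher (median 2.1). The number called higher was 4 without the LPS mouse of nest 20 and 4 when 1 CPM in 5 mice was required. Acod1, which makes itaconate, had no count after PBS and was at 3.39, 0, 0.185, 7.19 and 6.43 CPM after LPS, at least 169-fold higher. Hp, haptoglobin, was at 15.3, 0, 0.866, 1.04 and 4.77 CPM after LPS with no count after PBS, at least 216-fold higher. Both were at 0 in the LPS mouse of nest 4, and Hp was carried mainly by the LPS mouse of nest 2. Lcn2, lipocalin 2, was at 1.33, 0, 0.989, 1.37 and 1.81 CPM with 1 count after PBS. With DESeq2, Hp (adjusted p = 0.108) and Lcn2 (adjusted p = 0.104) were not called. Sod2, the mitochondrial superoxide dismutase, was well expressed in both groups, at 97.1, 59.2, 57.0, 133 and 169.6 CPM against 32.4 to 47.3 CPM (median 41.9, log2 fold change 1.34 ± 0.20 SE, adjusted p = 1.46e-06). Cybb, the catalytic subunit of NADPH oxidase, was called (log2 fold change 2.1 ± 0.67 SE, adjusted p = 0.0279), but its groups overlapped, and it was not called without the LPS mouse of nest 20 (1.66, adjusted p = 0.123), the LPS mouse of nest 17 (adjusted p = 0.0541), the PBS mouse of nest 2 (0.062) or the PBS mouse of nest 4 (0.0684). Of 14 tested enzymes of lipid mediators, 1 was higher and 1 lower, against 4.69% and 3.17% of all genes tested. Ptgs2 was the higher and Ephx2, at 0 to 1.82 CPM (median 0.0987) after PBS and without a count after LPS, the lower gene. The call of Ephx2 was lost without any 1 of the LPS mice of nests 2, 11, 17 and 20 or 1 of the PBS mice of nest 17.

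In glucose and amino acid metabolism 7 of 29 genes were higher and none lower (median 0.20). The glucose transporter gene Slc2a1 was at 833, 396, 207, 735 and 961 CPM after LPS and 97.7 to 131 CPM (median 119.6) after PBS (log2 fold change 2.45 ± 0.34 SE, adjusted p = 3.13e-07). Pfkfb3, which makes the activator of phosphofructokinase, was at 1114, 509, 260.1, 1057 and 1509 CPM against 124 to 205 CPM (median 147, log2 fold change 2.54 ± 0.32 SE, adjusted p = 2.11e-08). Ldha, lactate dehydrogenase, rose by 1.19 ± 0.15 (SE, adjusted p = 1.25e-08) and fell just under the fold threshold with total counts as the scaling (0.97). Slc7a11, the cystine-glutamate exchanger, rose by 3.71 ± 0.69 (SE, adjusted p = 6.82e-05). The other 22 genes were not called.

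**Figure D3:**
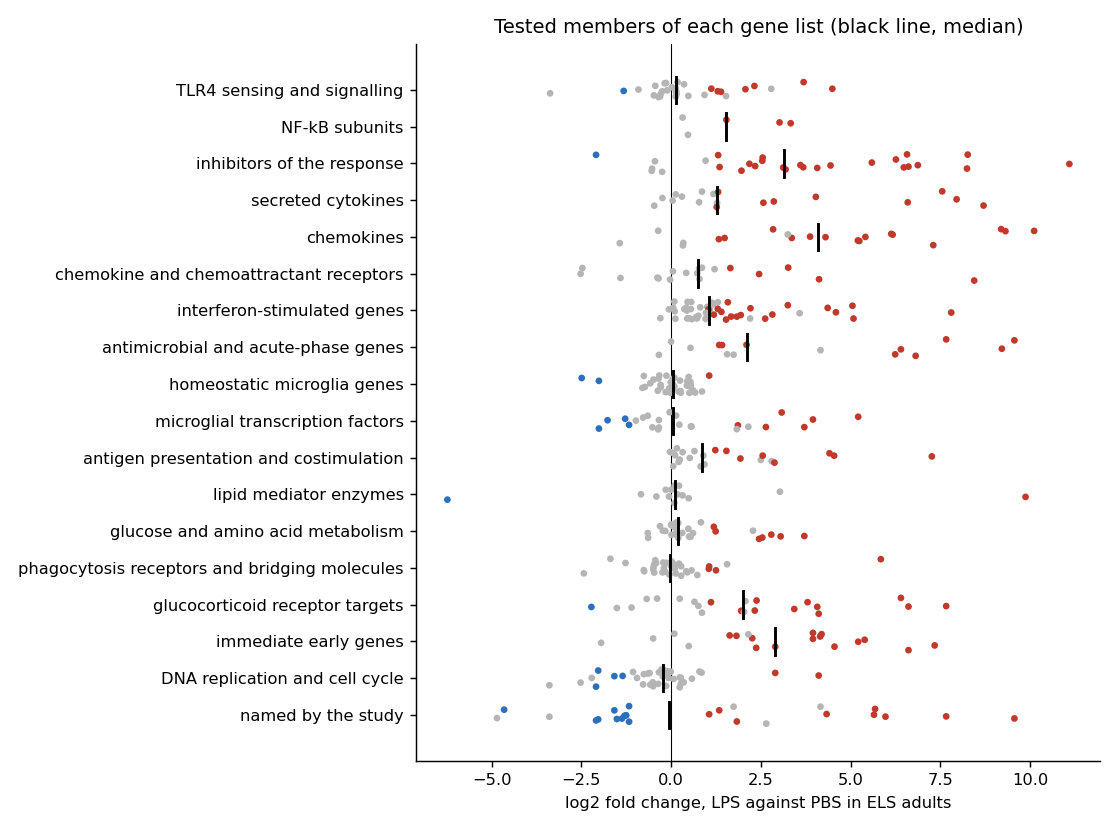
Log2 fold change of LPS against PBS in ELS adults for the tested members of 18 gene lists, 1 point per gene, red for genes called higher, blue for genes called lower and grey for genes not called, with the median as a black line. The medians of chemokines (4.08), inhibitors of the response (3.15) and immediate early genes (2.90) lie farthest to the right, while those of homeostatic microglia genes (0.04), microglial transcription factors (0.05) and DNA replication genes (-0.23) lie near 0.

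Of 40 homeostatic microglia genes, all of which were tested, 2 were lower and 1 higher, and the median was 0.04. Over all genes tested 3.17% were lower and 4.69% higher, so that at this fold threshold the list's shares were near those of all genes. The LPS and PBS mice did not overlap for 13 of the 40 genes, against 10.0% of all genes tested. Sall1, which maintains microglial identity, was lower, at 59.2, 111, 98.9, 94.4 and 38.7 CPM after LPS and 261 to 375 CPM (median 328) after PBS (log2 fold change -2.01 ± 0.18 SE, adjusted p = 1.80e-12). The groups did not overlap. P2ry6, a nucleotide receptor linked to phagocytosis, was the higher gene, at 1353, 918, 1175, 1316 and 1378 CPM against 528 to 646 CPM (median 595, log2 fold change 1.06 ± 0.16 SE, adjusted p = 7.20e-07), although with total counts as the scaling it stayed under the fold threshold (0.84). P2ry12, the ADP receptor that guides microglial processes, was at 7012, 11200, 9973, 8688 and 7723 CPM against 10470 to 14700 CPM (median 13760), a log2 fold change of -0.58 ± 0.18 (SE, adjusted p = 0.0271), which passed the adjusted p but not the fold threshold. Tmem119 was at 8274 CPM after LPS and 9055 CPM after PBS on average and was not called (-0.13, adjusted p = 0.815), with the LPS mouse of nest 11 (12060 CPM) above the other 10 mice. Without the LPS mouse of nest 11, 2 genes of the list were higher. With a fold threshold of 0.1 in place of 1, 11 of the 40 genes were higher and 6 lower. Over all 16696 genes tested, 1235 were higher and 824 lower at that threshold, so that there the list's shares were above those of all genes.

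Of 24 microglial transcription factor genes, 6 were higher and 4 lower (median 0.05), against 4.69% and 3.17% of all genes tested. Among the lower genes were Sall1 and Maf, the latter at 79.3, 111, 120.2, 122 and 70.7 CPM after LPS and 287 to 388 CPM (median 348) after PBS (log2 fold change -1.77 ± 0.25 SE, adjusted p = 5.37e-07), and Fli1 (log2 fold change -1.17 ± 0.15 SE, adjusted p = 3.68e-08). In these 3 genes the groups did not overlap. Egr1 rose the most, at 436, 792, 841, 574 and 538 CPM against 7.83 to 24.6 CPM (median 17.6, log2 fold change 5.21 ± 0.49 SE, adjusted p = 5.26e-12), and Cebpb, a factor of inflammatory macrophages, rose by 3.95 ± 0.80 (SE, adjusted p = 2.83e-04). Runx1 was at 518, 354, 172, 553 and 787 CPM against 122 to 150.1 CPM (median 131, log2 fold change 1.86 ± 0.22 SE, adjusted p = 4.59e-09). Among 34 tested phagocytosis receptors and bridging molecules, 4 were higher and none lower (median -0.03), against 4.69% and 3.17% of all genes tested. With total counts as the scaling, 2 of the 34 were higher. Cd300lf, a receptor for lipids on dying cells, was at 124, 78.7, 83.3, 114 and 110.3 CPM against 0.479 to 3.59 CPM (median 1.36, log2 fold change 5.84 ± 0.55 SE, adjusted p = 4.94e-12). The Fc receptor gene Fcgr3 rose by 1.05 ± 0.18 (SE, adjusted p = 2.09e-05), close to the fold threshold, and gave 0.98 without the LPS mouse of nest 11 and 0.84 with total counts. Mertk (-0.49, adjusted p = 0.089) and Trem2 (0.45, adjusted p = 0.00617) were not called.

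Sall1, Sgk1, B430010I23Rik and Mtus1 were among the 5 lower genes with the smallest adjusted p. Sgk1, a kinase gene that glucocorticoids and serum induce, was at 142, 233, 288, 208 and 152 CPM after LPS and 749 to 1182 CPM (median 955) after PBS (log2 fold change -2.22 ± 0.22 SE, adjusted p = 1.26e-11). Mtus1 (chr8:41443770-41605327), which encodes a microtubule-binding protein, was at 206, 277, 183, 226 and 181 CPM against 535 to 649 CPM (median 551, log2 fold change -1.39 ± 0.14 SE, adjusted p = 1.81e-11). B430010I23Rik (chr8:41470505-41477253) lies within Mtus1 on the opposite strand and fell by 1.76 on the log2 scale, so that both may count the same reads. The 10 largest decreases by the same rule as the increases were those of Gm37124, Gm4258, Cbx8, Atp2b2, Sema4b, AC132435.1, Gm37101, Sema6d, Arrdc3 and Gm47097, of which 5 have no gene name. Gm37124, which overlaps the host gene of Mir181a-1 on the same strand, had no count in any LPS mouse and was at 0.598 to 11.4 CPM (median 5.87) after PBS, at least 162-fold lower against a floor of 3 counts over the LPS group (0.0380 CPM). Cbx8, a Polycomb subunit, was at 1.11, 0.761, 1.85, 0.549 and 0.506 CPM against 8.2 to 19.21 CPM (median 12.4, log2 fold change -3.70 ± 0.38 SE, adjusted p = 9.25e-11). Arrdc3, an α-arrestin gene, was at 4.06, 16.7, 7.85, 11.09 and 19.29 CPM against 67.3 to 142 CPM (median 109, log2 fold change -3.21 ± 0.35 SE, adjusted p = 3.59e-10). Of 2 semaphorin genes, Sema4b fell by 3.55 and Sema6d by 3.22, and Atp2b2, a calcium pump of the plasma membrane, fell by 3.61. Gm4258 (-4.29), AC132435.1 (-3.53), Gm37101 (-3.38) and Gm47097 (-3.09) were at 1.3 CPM or less in each LPS mouse, and Gm37101 was not called without the PBS mouse of nest 20 (-2.83, adjusted p = 0.0505).

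Immediate early genes, which neurons and immune cells induce within minutes of a stimulus, were higher in 14 of 19 tested cases, with a median of 2.90 and none lower. Their order among the LPS mice was different from that of the cytokines. Fos was at 111, 165, 281, 149 and 91.8 CPM after LPS and 0.31 to 1.96 CPM (median 1.005) after PBS (log2 fold change 7.34 ± 0.84 SE, adjusted p = 1.94e-09), highest in the LPS mouse of nest 11 and lowest in the LPS mouse of nest 20. Ier2 was at 1306, 1440, 2628, 844 and 1577 CPM against 23.9 to 49.6 CPM (median 36.4, log2 fold change 5.39 ± 0.45 SE, adjusted p = 1.38e-13), again highest in the LPS mouse of nest 11. Ier3 was at 401, 332, 452, 439.7 and 466 CPM against 1.35 to 7.6 CPM (median 4.16, log2 fold change 6.61 ± 0.48 SE, adjusted p = 1.06e-15), and Junb, an AP-1 subunit, rose by 3.95 ± 0.42 (SE, adjusted p = 1.85e-10). Btg2, which restrains proliferation, was at 1686, 2370, 1928, 2074 and 1838 CPM against 249 to 279.9 CPM (median 263, log2 fold change 2.90 ± 0.16 SE, adjusted p = 1.25e-20), with the 5 LPS mice close together. Over the 14 higher members, the LPS mouse of nest 11 was the highest for 5 and the LPS mouse of nest 20 for 2, and the mean difference from the PBS mice was 3.95, 3.52, 3.86, 4.02 and 4.04 on the log2 scale. Over the 15 higher chemokines the LPS mouse of nest 20 was the highest for 13, and the mean difference was 4.22, 3.60, 3.19, 4.56 and 5.48. The order of the mice was chosen for description after their values were seen and was not tested.

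**Figure D4:**
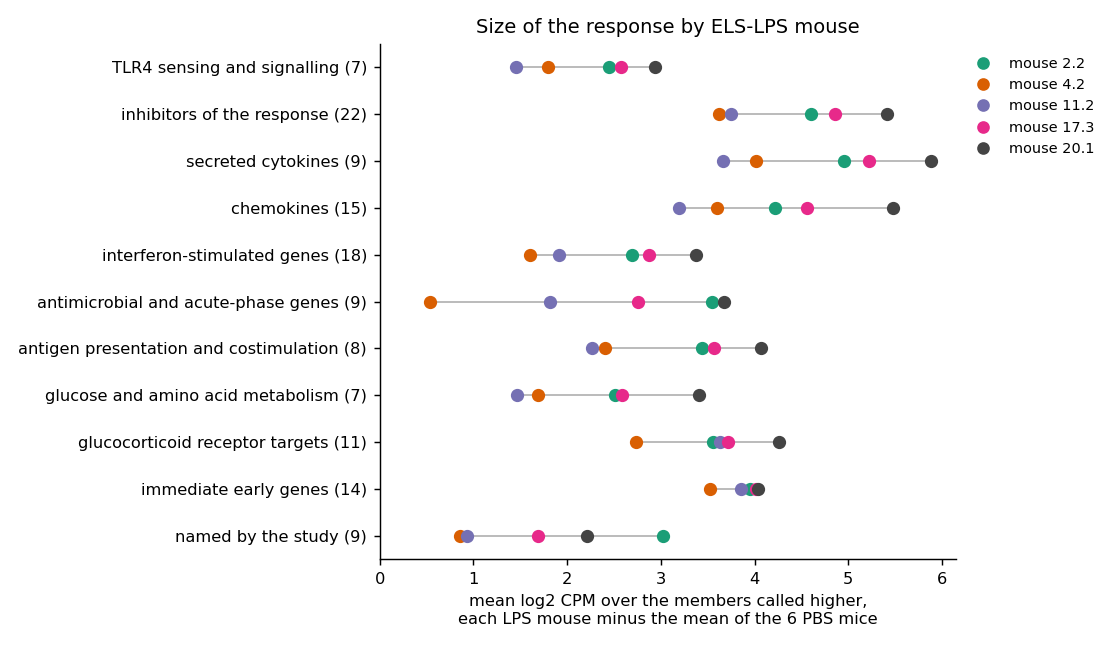
Mean log2 CPM over the members called higher of each list with 7 or more such members (number in brackets), given for each LPS mouse as the difference from the mean of the 6 PBS mice. Cytokines span 3.66 to 5.88 and chemokines 3.19 to 5.48 between the LPS mice of nests 11 and 20, whereas the 5 mice lie between 3.52 and 4.04 for immediate early genes.

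Targets of the glucocorticoid receptor, through which the stress hormone corticosterone acts, were higher in 11 of 22 tested genes, and 1 (Sgk1) was lower. The median was 1.99, and 2 genes were lower when 1 or the other PBS mouse of nest 17 was left out. Of these targets, Nfkbia, Dusp1, Cdkn1a and Lcn2 are also members of other lists. The 22 genes include the receptor gene Nr3c1 itself, which was not called (-0.39, adjusted p = 0.434). The metallothionein genes were called, with Mt2 at 38.1, 10.2, 24.3, 56.1 and 65.0 CPM after LPS and 0 to 0.362 CPM (median 0.175) after PBS (log2 fold change 7.66 ± 0.62 SE, adjusted p = 4.96e-14) and Mt1 at 252, 122, 198, 271 and 266 CPM against 15.6 to 27.1 CPM (median 19.96, log2 fold change 3.43 ± 0.36 SE, adjusted p = 1.24e-10). Other classical targets were high in 1 PBS mouse. Tsc22d3, which encodes the glucocorticoid-induced leucine zipper GILZ, was at 325, 452, 378, 308 and 238 CPM after LPS, at 716 CPM in the PBS mouse of nest 4 and at 118 to 339 CPM in the other PBS mice. Fkbp5, a co-chaperone of the receptor, was at 176 CPM in the PBS mouse of nest 4 and at 63.1 to 126 CPM in the other PBS mice, against 166, 158, 171, 192 and 169 CPM after LPS. Ddit4, Zbtb16 and Hif3a, named here because their values in this mouse were seen, were at 388, 8.68 and 6.08 CPM in the PBS mouse of nest 4 and at most 97.3, 2.39 and 0.362 CPM in the other PBS mice. Of the 22 genes, 11 had their highest PBS value in this PBS mouse of nest 4. With all mice, Tsc22d3 (0.24, adjusted p = 0.636), Zbtb16 (2.07, adjusted p = 0.233) and Hif3a (2.03, adjusted p = 0.231) were not called, and Fkbp5 was under the fold threshold (0.86, adjusted p = 0.023). Without the PBS mouse of nest 4 the values were 0.76 (adjusted p = 0.0239) for Tsc22d3, 4.02 (0.0218) for Zbtb16, 5.78 (4.96e-04) for Hif3a and 1.14 (0.00193) for Fkbp5, and 13 of the 22 genes were called higher. With limma-voom and nest as a random effect, Zbtb16 (5.13, adjusted p = 1.13e-04) and Hif3a (5.56, adjusted p = 2.94e-04) were also called with all mice. Per1, a clock gene that glucocorticoids induce, was at 65.0, 38.9, 76.8, 58.04 and 42.8 CPM after LPS and 2.61 to 38.5 CPM (median 10.5) after PBS (log2 fold change 1.95 ± 0.61 SE, adjusted p = 0.0271), and its call was lost when any 1 of 6 mice was left out, namely the LPS mice of nests 2 and 11, the PBS mice of nests 2 and 20 and either PBS mouse of nest 17 (adjusted p from 0.0519 to 0.0665).

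All 41 listed genes of DNA replication and the cell cycle were tested, with a median log2 fold change of -0.23. Of these, 2 were higher and 4 lower, against 4.69% and 3.17% of all genes tested. Cdkn1a and the cyclin gene Ccnd2 were the higher genes. The lower genes were Cdt1, a factor that licenses replication origins (log2 fold change -1.35 ± 0.45 SE, adjusted p = 0.0375), Chek1, the checkpoint kinase (log2 fold change -2.03 ± 0.65 SE, adjusted p = 0.0309), Dna2, a helicase-nuclease (log2 fold change -2.09 ± 0.67 SE, adjusted p = 0.0314), and Dbf4, the activator of the Cdc7 kinase (log2 fold change -1.58 ± 0.53 SE, adjusted p = 0.0411). Their levels were low, with Chek1 at 1.03, 0, 0, 0.933 and 0.506 CPM after LPS and 0.527 to 3.42 CPM (median 2.16) after PBS, and all 4 overlapped between the groups. The number of lower genes was 0 when the spread was estimated from the 25 adult mice or the 11 ELS adults alone, without the LPS mouse of nest 4 or without the LPS mouse of nest 20, and 2 without the LPS mouse of nest 17, the PBS mouse of nest 2, the PBS mouse of nest 20 or either PBS mouse of nest 17. It was 2 with limma-voom and nest as a random effect and 1 without a filter on low counts. Ccnd2 was not called with the 25 adults (adjusted p = 0.0627) or the 11 ELS adults alone (adjusted p = 0.0745).

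A list was made of 27 genes that the study names among the LPS responses it found in ELS but not CTR microglia. The list was thus chosen on these samples, and its counts in either group are no independent evidence of a direction or of a difference between ELS and CTR adults. Of 24 tested, 9 were higher and 10 lower after LPS in ELS adults. In CTR adults, 1 (Tnfaip6) was called higher and none lower, where 9.62% of all genes tested were called in either direction. Few calls in CTR adults follow from the way the list was chosen and are no finding of their own. The difference between the responses of ELS and CTR adults, tested as an interaction, was not called for any of the 24 genes. The smallest adjusted p was 0.252 (Chga), and 9 genes had an unadjusted p under 0.05, which the choice of the list favours as well. Arap3, a GTPase-activating protein, was at 52.09, 48.1, 36.4, 44.5 and 45.2 CPM after LPS and 64.8 to 142 CPM (median 95.4) after PBS in ELS adults (log2 fold change -1.17 ± 0.27 SE, adjusted p = 0.00146), and gave -0.07 ± 0.23 (SE, adjusted p = 0.907) in CTR adults (interaction p = 0.00285, adjusted p = 0.393). Zmym6, a zinc finger gene, gave -1.37 ± 0.31 (SE, adjusted p = 0.00145) in ELS adults and -0.45 ± 0.27 (SE, adjusted p = 0.29) in CTR adults. Rhoc, a small GTPase of the cytoskeleton, was at 22.3, 20.4, 40.2, 28.99 and 32.5 CPM against 9.82 to 17.9 CPM (median 14.1) in ELS adults (log2 fold change 1.06 ± 0.21 SE, adjusted p = 2.27e-04), gave 0.44 in CTR adults and was under the fold threshold without the LPS mouse of nest 11 (0.91), the PBS mouse of nest 4 (0.99) or 1 of the PBS mice of nest 17 (0.98). Edn1, endothelin 1, was at 1.99, 0, 0.556, 4.56 and 13.8 CPM against 0.163 to 1.07 CPM (median 0.706) and was not called (log2 fold change 2.65 ± 0.94 SE, adjusted p = 0.054), although it was with DESeq2 (adjusted p = 0.0183), without the LPS mouse of nest 11 (adjusted p = 0.0374) or without the LPS mouse of nest 4 (adjusted p = 0.0229). Some of the listed genes had counts in few mice. Chga, chromogranin A, was at 1.48 CPM in the LPS mouse of nest 2 and at 0 in the other 10 mice, and without that mouse it was at 0 in all ELS mice. Slpi, a protease inhibitor, was at 0.516 CPM in the same mouse only and was not called (4.16, adjusted p = 0.0868). Tnfaip6, which encodes the hyaluronan-binding protein TSG-6, was at 0.443, 0.292, 0, 0.659 and 4.48 CPM with no count after PBS, at least 57.6-fold higher. Cecr2, called lower, had 3 counts after LPS and was at 0 to 3.1 CPM (median 0.539) after PBS, and it was not called under 10 alternatives (adjusted p = 0.0501 to 0.249), among them leaving out the LPS mouse of nest 2, 11 or 17, the PBS mouse of nest 11 or the PBS mouse of nest 20. Cdc6 was not called (-3.39, adjusted p = 0.0907). Without the LPS mouse of nest 2, 5 of the 24 genes were called higher, and the same number was when 1 CPM in 5 mice was required. The number called lower was 5 without the LPS mouse of nest 11, 6 without the LPS mouse of nest 4 and 6 without the LPS mouse of nest 20. It was 6 with the 25 adults and 6 with the 11 ELS adults alone, and 5 with limma-voom and nest as a random effect.

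**Figure D5:**
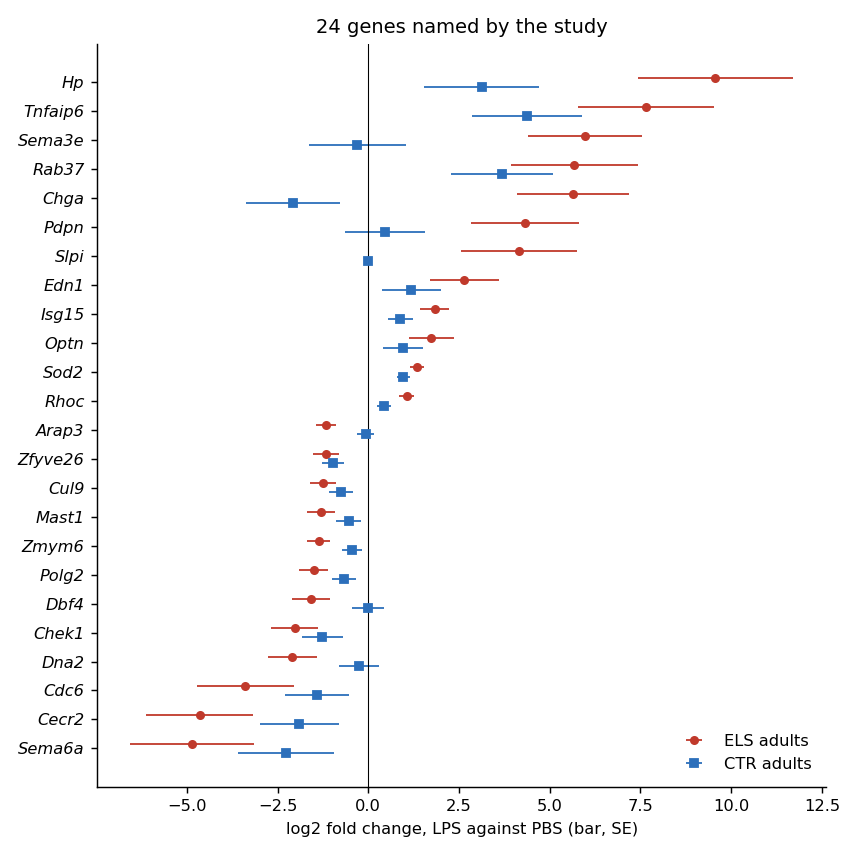
Log2 fold change of LPS against PBS with its SE in ELS adults (circles, 5 against 6 mice) and CTR adults (squares, 7 against 7 mice). The 24 genes are the tested members of the list taken from the study. For 21 of the genes both estimates lie on the same side of 0, and the widest bars belong to genes at or near 0 CPM in most mice, such as Hp, Tnfaip6 and Rab37.

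Over all genes, the interaction of rearing and LPS was called for 0 of 16696 genes (0%) with edgeR's quasi-likelihood test. An unadjusted p under 0.05 was found for 980 genes, and a share of about 0.05 of all genes tested would have one without any interaction. The likelihood-ratio test of edgeR called 66 and DESeq2 called 11. The 5 smallest p belonged to Phactr3, Pcdh19, Neil3, H2ac13 and Pyurf, each with an adjusted p of 0.127. The first 4 were at 1.65 CPM or less in every ELS adult. Phactr3 had 6 counts in the LPS mice, all in the LPS mouse of nest 4, and 18 in the PBS mice, and Pcdh19 had 39 and 1. Within ELS adults, the LPS response was called for Phactr3 without the LPS mouse of nest 4 (adjusted p = 0.0373), for Neil3 without the LPS mouse of nest 11 (adjusted p = 0.0344) and for H2ac13 without 1 of the PBS mice of nest 17 (adjusted p = 0.0259), and none of the 3 was called with all mice. Without the LPS mouse of nest 4, the interaction of Phactr3 was the only one called. Pyurf, which encodes a mitochondrial protein, was at 4.13, 6.38, 4.95, 4.83 and 4.77 CPM after LPS and 1.19 to 3.74 CPM (median 1.9) after PBS in ELS adults (log2 fold change 1.24 ± 0.30 SE, adjusted p = 0.00284) and gave -0.55 ± 0.27 (SE, adjusted p = 0.171) in CTR adults, where its means were 3.21 CPM after LPS and 4.72 CPM after PBS. The named inflammatory genes are given side by side: Il1b gave 8.70 in ELS and 7.80 in CTR adults, Tnf 6.59 and 6.50, Cxcl10 9.19 and 7.89, Nfkbia 4.07 and 3.56, Tlr4 -1.32 and -0.96, and Sall1 -2.01 and -1.73. An interaction p under 0.05 was found for 5 of 20 tested chemokines and 4 of 15 antimicrobial and acute-phase genes. It was found for 5 of 24 genes of antigen presentation and costimulation, 6 of 40 homeostatic genes and 0 of 31 genes of TLR4 sensing. Among the glucocorticoid receptor targets, 7 of 22 genes had an interaction p under 0.05 and none passed the adjustment. The smallest belonged to Ddit4 (p = 1.80e-04, adjusted p = 0.209), with -1.51 in ELS and 1.81 in CTR adults. The negative value in ELS adults rested on the PBS mouse of nest 4, and without it the log2 fold change of Ddit4 in ELS adults was 0.00, with an interaction p = 0.0111. When 1 or the other PBS mouse of nest 17 was left out, Ddit4 was called lower (both -1.76, adjusted p = 0.0404 and 0.0457). Without the PBS mouse of nest 4, 3 of the 22 genes had an interaction p under 0.05, and the smallest belonged to Nfkbia, whose p went from 0.0546 to 0.00264 (adjusted p = 0.44).

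Markers of other cells were called in few cases. Of 6 tested monocyte markers, Vcan was higher, at 0.369, 0, 0.185, 2.14 and 1.95 CPM after LPS with 3 counts after PBS, while Ccr2, the receptor of inflammatory monocytes, was at 2.73, 0.351, 1.18, 4.56 and 3.4 CPM against 3.36 to 10.7 CPM (median 5.68) and was not called (-1.41, adjusted p = 0.309). The median log2 fold change of the 6 was 1.93, and the list includes Nr4a1, which is also on the list of immediate early genes. Of 7 tested astrocyte markers, Gfap was higher, at 4.06, 1.05, 0.866, 2.31 and 0 CPM against 0 to 0.362 CPM (median 0, log2 fold change 3.92 ± 0.86 SE, adjusted p = 7.87e-04), and so was Gja1, connexin 43, at 2.07, 3.86, 0.124, 0.659 and 2.82 CPM against 0 to 0.391 CPM (median 0, log2 fold change 4.47 ± 0.99 SE, adjusted p = 9.57e-04). Both were under 5 CPM in every mouse, and the median log2 fold change of the 7 tested astrocyte markers was 0.77. Gfap was not called when the spread was estimated from the 11 ELS adults alone (adjusted p = 0.0579) or with limma-voom and nest as a random effect (adjusted p = 0.0561), and Vcan was not called with the latter (adjusted p = 0.0715). None of the tested neuron, oligodendrocyte lineage, endothelial, border-associated macrophage, lymphocyte, erythroid and neutrophil markers was called. Only 1 of 12 listed neutrophil markers (log2 fold change -0.03) and 1 of 11 lymphocyte markers (4.47) passed the filter on low counts. For these 2 lists the lack of calls therefore says little.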

How the data were processed

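The series holds 1 poly-A RNA library of hippocampal microglia for each of 50 mice. Per the labels and the study's methods, the authors trimmed reads with cutadapt 2.10, aligned them to GRCm39 with STAR and counted uniquely mapped exonic reads per gene with HTSeq 0.11.0, and deposited the counts without normalization. The annotation release and the strand setting are not given in the sources used here. Each mouse is 1 library, and no pair of libraries within the ELS adult groups agreed within sampling noise. Samples were grouped by their titles, and the number before the point was taken as a nest, whose meaning the sources do not define.

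A gene entered the tests if it reached 1 CPM in more than 2 mice of the series, as 16696 of 53700 did. Group means over all 50 mice were fitted with edgeR 4.0.16 (quasi-likelihood, TMM, R 4.3.3), which share 1 estimate of the spread, and P200-ELS-LPS was tested against P200-ELS-PBS, with the same contrast in CTR adults and their difference as the interaction. A gene was called at a Benjamini-Hochberg adjusted p under 0.05 and a log2 fold change beyond 1. Tests are two-sided. The fit was tested on simulated data before use. Alternatives used DESeq2 1.42.0, limma 3.58.1 and other filters, scalings and sets of mice. The total-count scaling was added after the TMM factors were seen. Floors cover counting error only, while the SE and the p-values reflect the spread between mice, whose number limits the precision.

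The members and lists were chosen with earlier results of these data known. Named genes were the 10 largest changes in each direction among called genes without overlap and with at least 5 CPM, the 5 smallest adjusted p in each direction, up to 6 members of each list beside its defining genes, the 5 smallest interaction p and cell markers. Further genes, such as Ddit4, Zbtb16, Hif3a, Il10, Ephx2 and Ccnd2, were named after their values were seen. Some genes that these rules name are not reported here. Gene positions are from a GENCODE annotation of GRCm39. Promoters are from a RefSeq table of GRCm38.p6, matched by symbol and searched over 200 bases before the start. Mean log2 CPM used a prior count of 2.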

Additional observations from a re-analysis of the deposited data

Results flagged for a closer look

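In 24 of 272 groups of 5 or 6 ELS mice, taken over the genes named here, 1 mouse lay far from the others of its group by Dixon's criterion. For normally distributed values chance gives such a mouse in about 1 of 20 groups. That rate does not hold for genes at 0 in most mice, so the number of flagged groups cannot be read as an excess. In 11 of these groups 1 mouse had counts and the others had none. These were Tnip3 (0.0804 CPM in 1 of the PBS mice of nest 17), Ptgs2 (1.367 CPM in 1 of the PBS mice of nest 17), Phactr3 (0.351 CPM in the LPS mouse of nest 4), Pcdh19 (0.03559 CPM in the PBS mouse of nest 4), H2ac13 (0.0402 CPM in 1 of the PBS mice of nest 17), Cish (1.297 CPM in the PBS mouse of nest 2), Ccr7 (0.5431 CPM in the PBS mouse of nest 20), Lcn2 (0.04791 CPM in 1 of the PBS mice of nest 17), Cdc6 (0.1855 CPM in the LPS mouse of nest 11), Chga (1.476 CPM in the LPS mouse of nest 2) and Slpi (0.5164 CPM in the LPS mouse of nest 2). Gm37124 was at 0.5975 CPM in the PBS mouse of nest 20, against 4.422 to 11.4 CPM in the other PBS mice. Gm47097 was at 0 CPM in the LPS mouse of nest 20, against 0.5902 to 1.298 CPM in the other LPS mice. Mtus1 was at 648.6 CPM in 1 of the PBS mice of nest 17, against 535.4 to 559.4 CPM in the other PBS mice. Myd88 was at 128.2 CPM in the PBS mouse of nest 20, against 90.25 to 102 CPM in the other PBS mice. Ticam1 was at 25.28 CPM in the LPS mouse of nest 4, against 44.19 to 54.69 CPM in the other LPS mice. Il12b was at 3.639 CPM in the PBS mouse of nest 20, against 0 to 0.0402 CPM in the other PBS mice. Gbp5 was at 0.3259 CPM in the PBS mouse of nest 20, against 5.076 to 9.573 CPM in the other PBS mice. Lcn2 was at 0 CPM in the LPS mouse of nest 4, against 0.9891 to 1.806 CPM in the other LPS mice. Tmem119 was at 12060 CPM in the LPS mouse of nest 11, against 6605 to 7857 CPM in the other LPS mice. Trem2 was at 4058 CPM in the LPS mouse of nest 11, against 2248 to 2513 CPM in the other LPS mice. Nr3c1 was at 85.88 CPM in the LPS mouse of nest 2, against 119.6 to 132.9 CPM in the other LPS mice. Gja1 was at 0.3914 CPM in the PBS mouse of nest 4, against 0 to 0.05431 CPM in the other PBS mice. Ddit4 was at 20.7 CPM in the LPS mouse of nest 17, against 32.83 to 37.62 CPM in the other LPS mice. The causes of these values were not tested.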

How the results depend on the processing

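The counts of higher and lower genes stayed within 1.5 times of 783 and 530 under 9 alternatives. These gave 902 and 692 with edgeR's likelihood-ratio test, 780 and 526 with a robust fit, 891 and 665 with DESeq2, 805 and 508 with DESeq2 size factors, 830 and 512 with filterByExpr, 820 and 397 without a filter, 642 and 457 with 1 CPM in 5 mice of the comparison, 771 and 501 in the 25 adults and 787 and 645 in the 11 ELS adults. With a log2 fold threshold of 0.1 in place of 1 there were 1235 and 824, and with total counts in place of TMM 625 and 876. Leaving out 1 of the 11 ELS adults gave 669 to 802 higher and 427 to 545 lower genes. The interaction was called for 11 genes with DESeq2 and 66 with the likelihood-ratio test, and for 0 to 1 when 1 of the 11 ELS adults was left out, while no CTR adult was left out. The log2 fold change of Phactr3 was -0.79 and ranged from -4.56 to 0.06 when 1 ELS adult was left out, and its sign turned without the PBS mouse of nest 11. The causes were not tested.

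With nest as a replicate block there were 756 and 693 genes and 0 interactions, and limma-voom with nest as a random effect gave 810 and 614 (nest correlation 0.078). The deviations of same-nest LPS and PBS mice from their group means correlated at -0.041 to 0.084, and in 2 of 5 nests a mouse correlated best with its own nest. With 5 nests, most with 1 mouse per treatment, these values cannot decide whether mice of a nest resembled each other. Over the 136 named genes the replicate block ended 6 calls and added 4. With the block, the log2 fold changes and adjusted p of the calls that ended were those of Pcdh19 (3.83, 0.306), Chek1 (-2.54, 0.115), Dbf4 (-1.69, 0.0721), Chga (3.4, 0.396), Cecr2 (-4.28, 0.173) and Gfap (4.6, 0.0696), and of those added Ticam1 (1.5, 6.32e-04), Il6 (1.19, 0.0116), Zbtb16 (4.84, 0.0427) and Hif3a (5.09, 0.0144). The lower genes of DNA replication numbered 2 with the block. Of the list counts under all alternatives, 55 moved by more than 1.5 times and 809 did not. Genes under 1 CPM rest on few counts, and differences in them were often not detectable at this depth.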
